A study of Mus musculus with 24 samples.

Results

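Mitochondrial ribosomal proteins were followed through 74 genes whose symbols begin with Mrpl or Mrps and a digit, out of 12393 genes named by the arrays. A gene was included when at least 1 probe set carried its symbol and no other, and where a gene had several such probe sets, the 1 with the highest mean over the 24 arrays stands for it. This rule used names and overall signal only, but it was set with earlier results of these data known. The members were read by 127 probe sets in all, 41 members by a single probe set and 33 by more. RefSeq lists 78 protein-coding mouse genes of this name pattern, and Mrpl30, Mrpl53, Mrps10 and Mrps27 are not analysed here. By name, 47 members belong to the large subunit (Mrpl) and 27 to the small subunit (Mrps). The names are older than the structures: Mrps18a and Mrps30 are now placed in the large subunit, and Mrps36 is now known as a component of the 2-oxoglutarate dehydrogenase complex.

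The mitochondrial ribosome sits in the matrix and translates the few messenger RNAs of the mitochondrial genome, which encode core subunits of the respiratory chain and ATP synthase. Its ribosomal RNAs come from the mitochondrial genome, whereas every one of its proteins is encoded in the nucleus, made in the cytosol and imported. Blood stem cells rely little on respiration, and several acute myeloid leukemias depend on mitochondrial translation.

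The arrays measured total RNA from blood progenitors of C57BL/6 mice, 1 sample per array, in 7 groups. Granulocyte monocyte progenitors (GMP) were infected by spinoculation with an empty GFP vector (GFP, 3 arrays) or with a vector carrying the fusion oncogene MOZ-TIF2 (MT2, 4 arrays), NUP98-HOXA9 (NHA9, 3 arrays) or AML1-ETO (AE, 4 arrays), and GFP-positive cells were taken 36 hours later. Normal GMP (4 arrays) and normal LSK cells, the fraction that holds the stem cells (3 arrays, titled HSC), were uninfected and sorted fresh. The last group was leukemic stem cells of GMP surface phenotype from MOZ-TIF2 leukemias (L-GMP, 3 arrays). The series compares each oncogene, and all of them joined, with the empty vector, LSK with GMP, and L-GMP with GMP. The age of the mice, the promoter that drives the oncogenes and the number of leukemias are not given in the sources used here. Nothing says that replicates came from separate animals or cultures, so a p-value reflects only how far these samples vary, and that variation may be technical.

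Values are log2 expression, and a group's error is the SD over its arrays. A difference is given as log2 of the first group over the second with its standard error (SE), and a member passed when limma's p, adjusted over all probe sets tested, was under 0.05. All 74 members passed the filter on low values and were tested in every comparison. The filter used the level of 60, the average background stated by the authors, and 72 members lay over it on all 24 arrays. Each array had 46.1% to 48.3% of its probe sets over that level. The 8 GMP markers measured lay over it on every GMP, GFP, MT2, NHA9 and AE array, and 7 did so on every L-GMP array. The array GMP 2 stood apart, with a median over the probe sets in use of −0.28 against 0.01 to 0.13 on the other GMP arrays. For Gapdh the gap between the 3' and the 5' probe sets, a sign of RNA quality, was widest on L-GMP 1 (4.82). In these bulk samples fewer cells of a type and less RNA per cell cannot be told apart. The 3 comparisons of an oncogene with GFP share the GFP arrays, and LSK, L-GMP and GFP were each set against the same GMP arrays.

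The members ran together over the arrays, but the same correlation was not computed for other genes. The median of all probe sets in use also differed between arrays, from −0.28 on GMP 2 to 0.13 on GMP 4. Its part in the members' likeness was not tested. For the median member, the correlation with the median of the other members over 24 arrays was 0.66, and for 61 members it was over 0.5, with no p because the points share groups and arrays. Mrpl35, a large subunit protein with a bacterial counterpart, followed the others most closely at 0.88. Mrpl52, a mitochondria-specific large subunit protein, ran against them at −0.36, the single member below 0 on the values as deposited. Mrpl39, which descends from a tRNA synthetase-like protein, was close to unrelated at 0.01. The likeness was lower after quantile normalization, with a median correlation of 0.56 and 43 members over 0.5. Then 3 members were below 0, Mrpl52 (−0.44), Mrpl24 (−0.32) and Mrps6 (−0.08), and Mrpl36 followed the others most closely at 0.90.

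Summarised as the median deviation from each gene's own mean, the members lay at −0.18, −0.42 and −0.04 on the LSK arrays. They lay at 0.12, −0.23, 0.17 and 0.30 on the GMP arrays, where GMP 2 was the low value. The GFP arrays gave −0.17, −0.20 and −0.00, and the MT2 arrays 0.12, 0.10, 0.00 and 0.11. The L-GMP arrays split, with −0.24 on L-GMP 1 and 0.21 and 0.18 on the others. LSK arrays and 2 of 3 GFP arrays were thus on the low side and 3 of 4 GMP arrays on the high side. After quantile normalization the value on GMP 2 rose to 0.10, close under the other GMP arrays (0.15 to 0.16), while all LSK arrays stayed below 0.

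**Figure D1:**
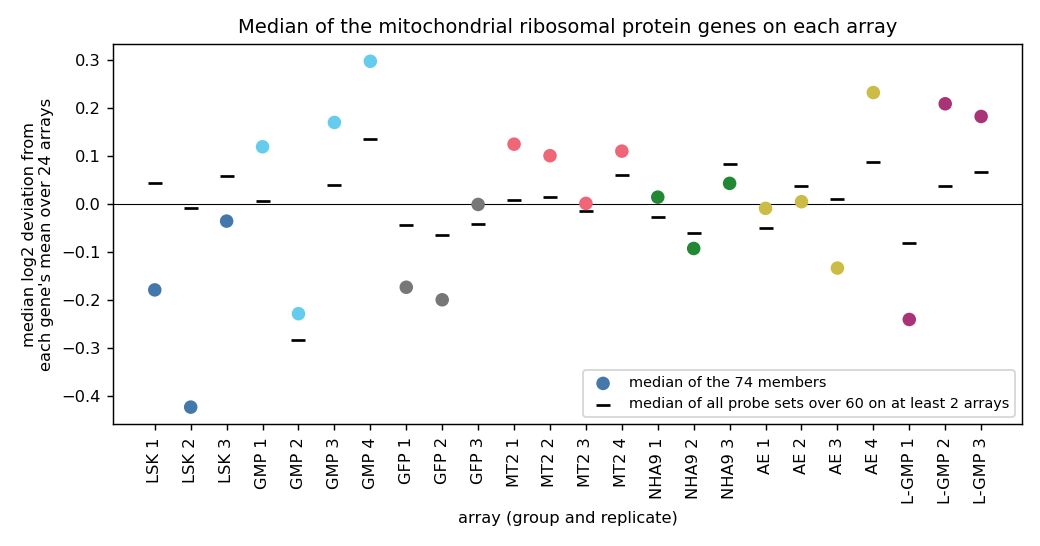
Median log2 deviation of the 74 members (points, coloured by group) and of all probe sets over 60 on at least 2 arrays (dashes), for each of the 24 arrays. LSK 2 is the lowest array for the members at −0.42 and GMP 4 the highest at 0.30, and GMP 2 is low for the members and for all probe sets alike.

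**Figure D2:**
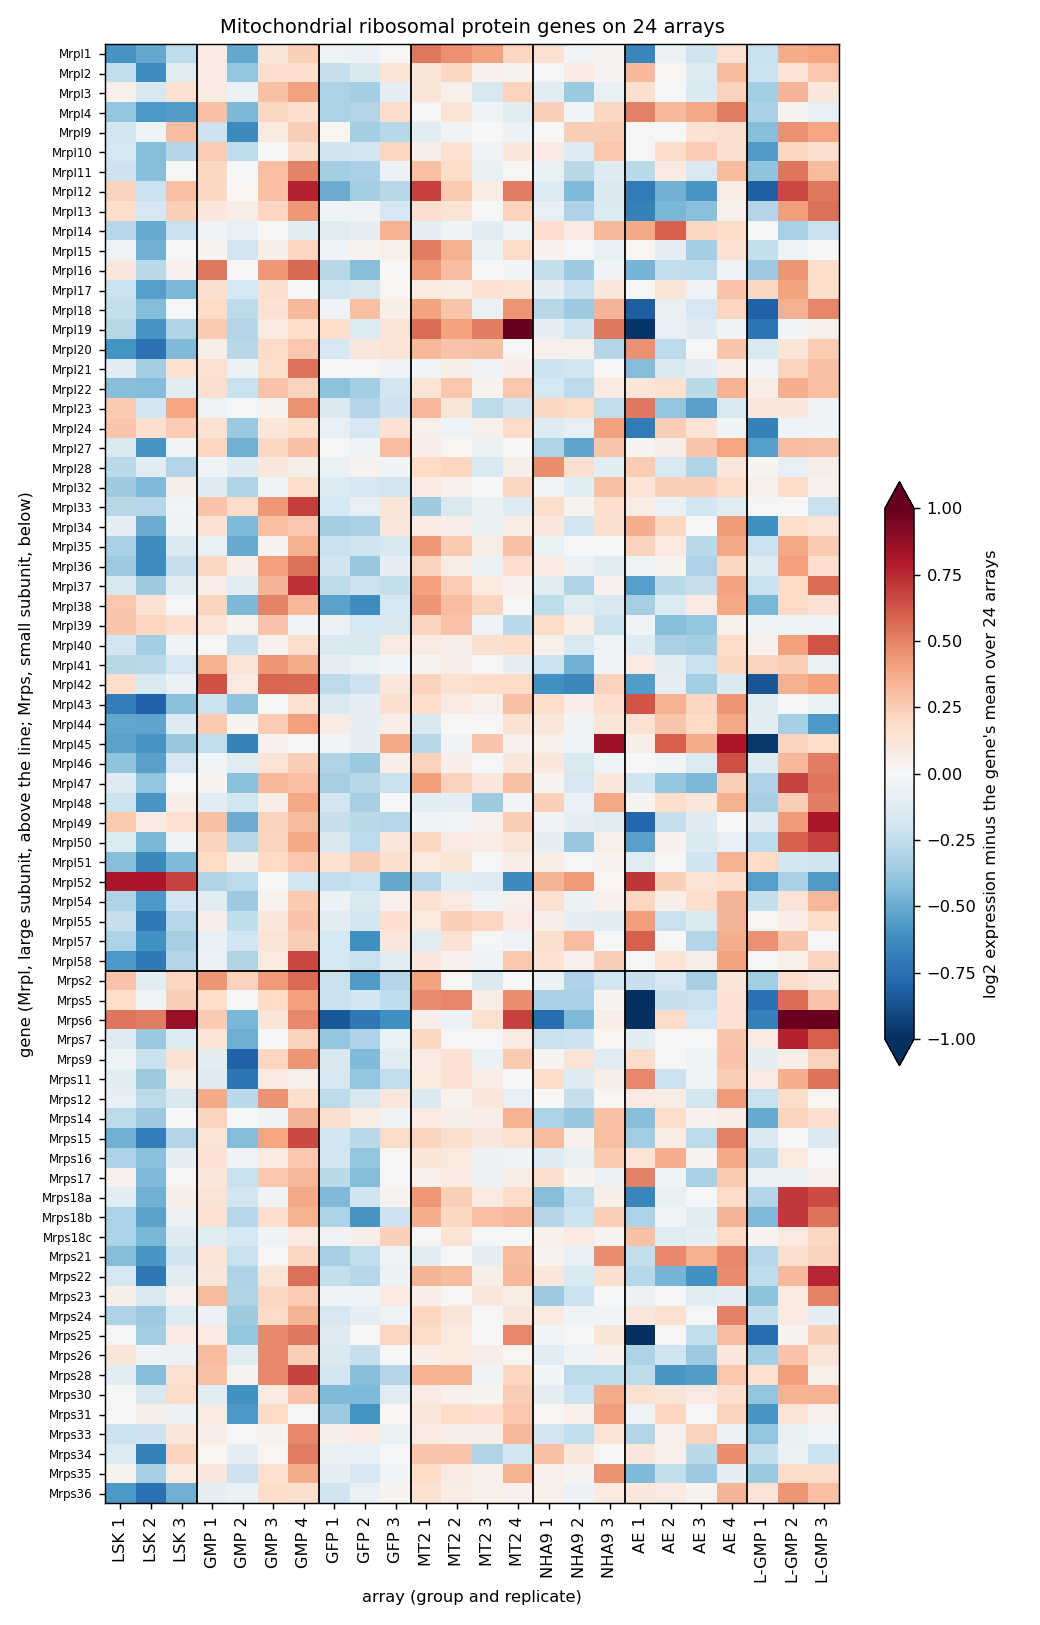
Log2 expression of each member (rows, large subunit above the line and small subunit below) minus its mean over the 24 arrays (columns, by group), with the colour scale limited to −1 to 1. Blue prevails in the LSK columns, where 40 members have their lowest group mean, and Mrpl52 stands out there in red.

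The spread of the 7 group means was small for most members. Its median was 0.57 on the log2 scale, 31 members stayed under 0.5, and 4 went over 1. These were Mrps6 (1.36, highest in LSK and lowest in GFP), Mrpl52 (1.24, highest in LSK and lowest in L-GMP), Mrpl43 (1.05, highest in AE and lowest in LSK) and Mrpl19 (1.01, highest in MT2 and lowest in LSK). Mrpl45, which tethers the mitochondrial ribosome to the inner membrane, followed with 0.96, highest in AE and lowest in LSK. The lowest group mean fell in LSK for 40 members and in GFP for 17, while GMP and MT2 were the lowest group for none. Levels of different members are not set against each other, because each probe set has its own response.

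The promoters of the members were read from RefSeq (GRCm38.p6) as 71 windows of 300 bases, 250 before and 50 after the start, for 65 of the members. Their median GC content was 58.7%, against 52.7% over all 32851 windows. Motifs were searched on both strands as exact letters. CCGGAAG, which ETS factors such as GABPA bind, was in 33.8% of the members' windows and in 8.86% of all windows. AAGATGGC, bound by YY1, was in 15.5% against 2.75%, and GCGCATGC, the core of the NRF1 site, in 11.3% against 2.71%. The E-box CACGTG, bound by Myc with Max, was in 9.86% against 7.15%, and the TATA box TATAAA in 7.04% against 13.6%. ETS, YY1 and NRF1 letters were thus several times as frequent in the members' windows as in all windows, which differ in GC content, and a match is a description of the letters, not of binding.

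**Figure D3:**
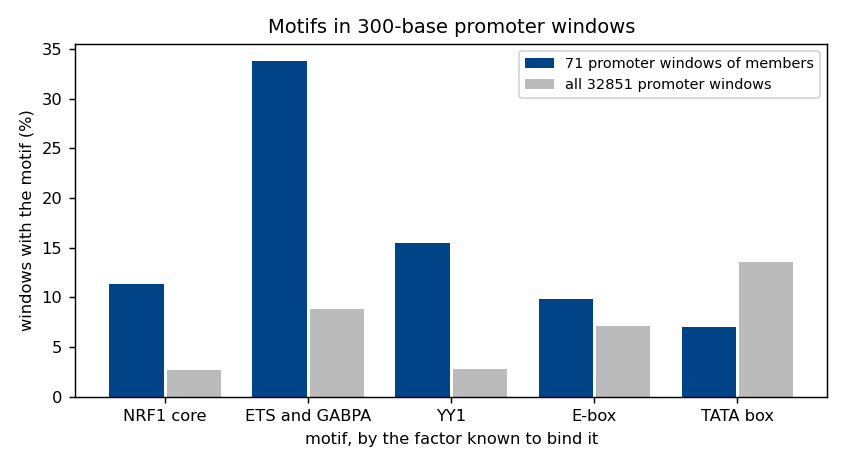
Share of 300-base promoter windows (%) that hold each motif on either strand, for the 71 windows of members (dark bars) and all 32851 windows (grey bars). The ETS and GABPA motif is the most frequent in members (33.8%), and the TATA box is the single motif of the 5 that is less frequent in members (7.04%) than in all windows (13.6%).

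The 110 bases from 100 before the start to 10 after it are printed for 6 members that passed a test described further on, to show the kinds of motif side by side, with each motif in capitals on the strand of the gene. Mrpl22 (chr11:58171564-58171673, plus strand) and Mrpl33 (chr5:31613851-31613960, plus strand) hold the ETS motif and the NRF1 core, in opposite order. Mrps22 (chr9:98601670-98601779, minus strand) holds the ETS motif 11 bases before the start, and Mrpl52 (chr14:54426809-54426918, plus strand) holds it at 2 places in the reverse direction. Mrpl36 (chr13:73330909-73331018, plus strand) holds an E-box 43 bases and a reversed YY1 motif 30 bases before the start, and Mrpl20 (chr4:155802778-155802887, plus strand) an E-box 33 bases before it.
Mrpl22: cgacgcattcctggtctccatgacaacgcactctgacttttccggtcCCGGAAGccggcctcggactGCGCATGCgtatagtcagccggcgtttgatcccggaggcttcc
Mrpl33: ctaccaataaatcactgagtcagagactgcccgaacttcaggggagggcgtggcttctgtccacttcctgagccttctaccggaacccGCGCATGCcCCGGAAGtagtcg
Mrps22: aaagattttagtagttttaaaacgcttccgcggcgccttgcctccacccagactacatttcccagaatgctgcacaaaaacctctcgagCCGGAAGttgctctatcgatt
Mrpl52: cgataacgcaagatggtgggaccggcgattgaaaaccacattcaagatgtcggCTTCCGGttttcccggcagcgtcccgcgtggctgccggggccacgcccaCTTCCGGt
Mrpl36: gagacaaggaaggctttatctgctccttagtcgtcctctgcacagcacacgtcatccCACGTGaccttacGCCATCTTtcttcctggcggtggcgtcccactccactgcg
Mrpl20: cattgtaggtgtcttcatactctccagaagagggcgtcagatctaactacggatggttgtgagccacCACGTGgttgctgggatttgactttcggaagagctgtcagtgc

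MOZ-TIF2, which joins a histone acetyltransferase to a coactivator, was compared with the empty vector at 36 hours. Of the 74 members, 14 were higher in MT2 than in GFP, or 18.9%, where 8.91% of all probe sets tested were higher. No member was lower, where 2.93% of all probe sets were. At an unadjusted p under 0.05, 0 members were lower and 30 were higher. Of all probe sets 29.8% were at that p in either direction. Across members, 67 of 74 lay higher, with a median difference of 0.22, while 60.8% of all probe sets lay higher with a median of 0.07. The median was 0.21 for the large subunit and 0.26 for the small subunit, with 8 and 6 members higher.

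Among small subunit members, Mrps6, the counterpart of bacterial S6, read 7.07, 6.94, 7.15 and 7.68 on the MT2 arrays and 6.16, 6.28 and 6.38 on the GFP arrays. Every MT2 array lay above every GFP array, a difference of 0.94 (SE 0.17, limma adjusted p = 0.0127). Mrps18b, 1 of the S18 paralogs of mammals, read 9.65, 9.50, 9.59 and 9.62 in MT2 and 8.97, 8.70 and 9.08 in GFP. The MT2 arrays were close together and all above GFP, by 0.67 (SE 0.12, limma adjusted p = 0.012). Mrps5, the counterpart of bacterial S5 near the entry of the messenger RNA, read 8.13, 8.15, 7.74 and 8.13 in MT2 and 7.44, 7.47 and 7.41 in GFP. MT2 3 was the low value of its group and still above GFP, and the difference was 0.60 (SE 0.13, limma adjusted p = 0.0191).

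Among large subunit members, Mrpl12, which forms the flexible stalk that binds translation factors, read 9.71, 9.29, 9.10 and 9.54 in MT2 and 8.52, 8.69 and 8.74 in GFP. The groups did not overlap and differed by 0.76 (SE 0.15, limma adjusted p = 0.0163). Mrpl38, a mitochondria-specific protein of the central protuberance, read 8.38, 8.25, 8.17 and 7.95 in MT2 and 7.41, 7.31 and 7.77 in GFP, a difference of 0.69 (SE 0.15, limma adjusted p = 0.0185). Mrpl19, the counterpart of bacterial L19 at the subunit interface, read 8.71, 8.55, 8.67 and 9.16 in MT2 and 8.33, 8.02 and 8.28 in GFP. Its groups were apart by a narrow gap, with a difference of 0.57 (SE 0.16, limma adjusted p = 0.0449). The other members that passed were Mrpl47, Mrps28, Mrpl22, Mrpl35, Mrps22, Mrpl1, Mrpl37 and Mrps30, with differences from 0.43 to 0.54 and no overlap between the groups in any of them. Of these, Mrpl22 lines the peptide exit tunnel and Mrpl1 forms the stalk beside the tRNA exit.

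**Figure D4:**
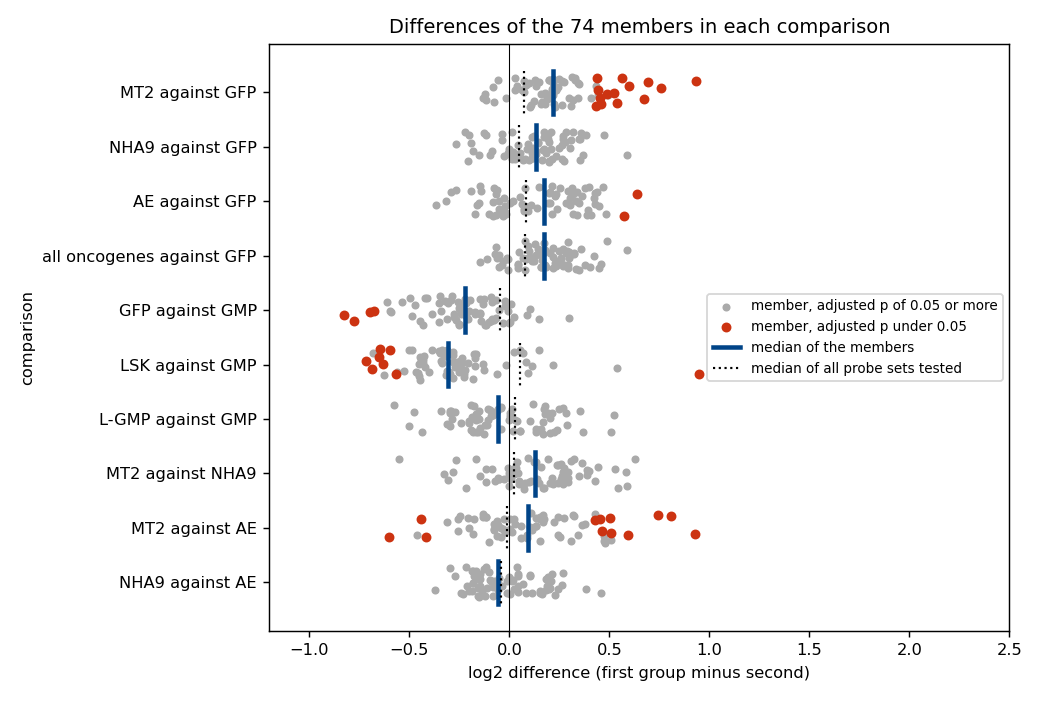
Log2 difference of each of the 74 members (points, red where the adjusted p is under 0.05) in the 10 comparisons, with the median of the members (blue bar) and of all probe sets tested (dotted). The members lie to the right in MT2 against GFP (median 0.22), to the left in LSK against GMP (median −0.31), and on both sides in L-GMP against GMP (median −0.06).

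The call of 14 members rested on few arrays. Without GFP 2 no member passed and without GFP 1 only 2 did. Leaving out MT2 1, MT2 2, MT2 4 or GFP 3 gave 4, 7, 9 and 9, and those without GFP 3 included 8 of the 14. Mrps6 and Mrps18b lost their call in 1 of the 7 leave-outs, that of GFP 2. After quantile normalization 7 members passed and the median difference fell to 0.13. Arrays whose file names carry the tag shared by all GFP arrays (tag A, which covers MT2 1 to 3) gave 9 members, a fit to all 24 arrays with the tag as a factor gave Mrps18b alone, and the unequal-variance test that the study's methods name (the methods' t-test) gave 0.

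Markers of mature neutrophils moved with this comparison: the summed linear level of the 7 listed genes was 6310 to 18300 on MT2 arrays and 26100 to 31200 on GFP arrays. Of these genes 6 lay over 60 on every array of both groups, and Mmp9 lay under 60 on all. Their part in the members' differences was not tested.

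Other genes of the pathway, from lists that follow their known roles, were higher in MT2 in part. Their counts stand beside the 8.91% of all probe sets that were higher and the 2.93% that were lower. They rest on the same 3 GFP arrays as the members. Of 10 translation factors tested, 2 were higher and 0 lower, Mrrf, which recycles the ribosome (0.44, SE 0.12, limma adjusted p = 0.0377), and Gfm1, an elongation factor (0.37, SE 0.11, limma adjusted p = 0.0491). Of 4 ribosome proteins with other names, Ptcd3 (0.44) and Gadd45gip1 (0.42) were higher. Of 16 assembly genes with both group means over 60, 5 were higher and 0 lower, led by Trub2, which modifies mitochondrial RNA (0.70, SE 0.13, limma adjusted p = 0.0133), and Fastkd2, needed for the large ribosomal RNA (0.67, SE 0.14, limma adjusted p = 0.0176). Of 16 such genes of mitochondrial genome expression, 5 were higher and 0 lower, led by Trmt10c, part of the enzyme that trims mitochondrial tRNAs (0.74, SE 0.16, limma adjusted p = 0.0218), and Supv3l1, an RNA helicase (0.68, SE 0.19, limma adjusted p = 0.0422). Metap1d and Fastkd1, whose GFP means lay under 60, were tested only through their MT2 values and are left out of these counts. Of 11 tRNA synthetase and amidotransferase genes, 1 was higher, Qrsl1 (0.52, SE 0.12, limma adjusted p = 0.0222).

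Among 9 regulators tested, Myc, a factor that drives ribosome and mitochondrial genes, read 9.92, 9.55, 9.53 and 9.76 in MT2 and 8.87, 8.32 and 8.75 in GFP, a difference of 1.05 (SE 0.16, limma adjusted p = 0.00845). Pprc1, a coactivator of NRF1 target genes, was higher by 0.85 (SE 0.19, limma adjusted p = 0.0229). Mycn went the other way, from 13.41 ± 0.27 (SD, n = 3) in GFP to 10.57 ± 0.60 (SD, n = 4) in MT2, a difference of −2.83 (limma adjusted p = 0.00299).

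AML1-ETO, a fusion of a blood transcription factor with a corepressor, was compared with the same GFP arrays. Of the members 2 were higher in AE, where 8.75% of all probe sets were, and 0 were lower, where 2.21% were, so the members' share was below the background. At an unadjusted p under 0.05, 0 of the 74 members were lower and 12 were higher, where 28.4% of all probe sets were at that p. The median member difference was 0.17, beside 0.08 over all probe sets, and quantile normalization moved these to 0.05 and −0.02. Mrpl52 read 10.32, 9.84, 9.74 and 9.77 in AE and 9.36, 9.39 and 9.09 in GFP, and the groups were apart by 0.64 (SE 0.18, limma adjusted p = 0.0466). Mrpl4, which lines the exit tunnel, read 9.30, 9.12, 9.18 and 9.32 in AE and 8.48, 8.50 and 8.98 in GFP, with GFP 3 near the AE arrays and a difference of 0.57 (SE 0.16, limma adjusted p = 0.0496).

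Both calls were fragile. Without AE 2, AE 3, AE 4, GFP 1 or GFP 2 neither passed, without GFP 3 Mrpl4 alone did, and without AE 1, an array on which several members were low, 7 members passed, all higher. With quantile normalization, without the filter on low values, and with the methods' t-test 0 members passed. In tag A, which holds a single AE array (AE 1), 9 passed, 3 higher and 6 lower, and with the tag as a factor 3 passed, 1 higher and 2 lower. Mrpl52 has 3 tested probe sets, and the other ones gave 0.86 (limma adjusted p = 0.0084) and 0.91 (limma adjusted p = 0.0145). Mrpl15 was not called, but another of its probe sets was lower in AE (−0.61, limma adjusted p = 0.0211). In the pathway lists, Dhx30, a helicase of ribosome assembly (0.74, SE 0.18, limma adjusted p = 0.0271), and Mettl17 (0.53, limma adjusted p = 0.0463) were the 2 of 17 assembly genes higher in AE, and Iars2 (0.67) and Qrsl1 (0.62) the 2 of 11 tRNA synthetase and amidotransferase genes. Over all probe sets 8.75% were higher. Of the 9 regulators only Mycn passed, lower by −0.85 (limma adjusted p = 0.0305), and no translation factor or gene of mitochondrial genome expression did.

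Of 9 marker lists, 4 had summed levels that did not overlap between AE and GFP. The 4 megakaryocyte genes, of which Pf4 was the highest and Gp1bb lay under 60, summed to 1980 to 4740 in AE and 411 to 673 in GFP. The 4 B cell genes, with Cd79b alone over 60, summed to 310 to 413 in AE and 153 to 229 in GFP. The 8 GMP genes summed to 37700 to 46800 in AE and 49000 to 53400 in GFP. Among them Csf1r (13.16 against 12.49) and Csf3r (9.21 against 8.91) were higher in AE. The 5 T and NK cell genes, 1 of them over 60 on every array, summed to 1380 to 1780 and 1840 to 2080. Their part in the members' differences was not tested.

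NUP98-HOXA9, which joins a nuclear pore protein to a homeobox factor, gave 0 calls among the members with limma, where 0.200% of all probe sets passed, and 4 at an unadjusted p under 0.05, all higher. The methods' t-test gave 0 as well, and 1 member passed within tag A and 1 without NHA9 3. The median member difference was 0.13, beside 0.05 over all probe sets, and 58 of 74 lay higher. The widest was again Mrpl52, at 9.95, 10.03 and 9.62 in NHA9 and 9.36, 9.39 and 9.09 in GFP, a difference of 0.59 (SE 0.16) with no overlap and a limma adjusted p of 0.288. Mrps6 stood at 6.24, 6.56 and 7.07 in NHA9, overlapping GFP, with a difference of 0.35 (SE 0.21, limma adjusted p = 0.577). Of the pathway lists only Mycn passed, lower in NHA9 by −1.57 (SE 0.20, limma adjusted p = 0.0283). Macrophage markers summed to 2230 to 2600 in NHA9 and 1530 to 1780 in GFP, although Vcam1 was lower (7.65 against 8.23). Megakaryocyte markers summed to 815 to 1280 and 411 to 673. Pf4 was the highest of them (9.73 against 8.45), Itga2b was also higher, and Gp9 and Gp1bb were lower in NHA9. T and NK cell markers summed to 1230 to 1520 and 1840 to 2080, with Nkg7 by far the highest (10.30 against 10.82). The part of these lists was not tested.

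With the 11 oncogene arrays joined against GFP, limma called 0 members and 0% of all probe sets. At an unadjusted p under 0.05 were 15 members, all higher, while 10.7% of all probe sets were at that p, and the methods' t-test called 3, all higher. The median member difference was 0.17 beside 0.08 over all probe sets. Mrps31, a mitochondria-specific small subunit protein, had the smallest adjusted p, at 0.268, with 8.80 ± 0.14 (SD, n = 11) against 8.35 ± 0.31 (SD, n = 3).

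The oncogenes were then set against each other in a fit to the 14 transduced arrays. MT2 differed from AE in 12 members: 9 were higher in MT2, or 12.2%, where 12.3% of all probe sets were, and 3 were lower, or 4.05%, where 16.2% were. The share of higher members was at the background and the share of lower members below it. The median member difference was 0.10, beside −0.01 over all probe sets.

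Mrpl19 was the member furthest apart, at 7.17, 8.07, 8.03 and 8.11 in AE against 8.55 to 9.16 in MT2, with AE 1 well below its group. The difference was 0.93 (SE 0.22, limma adjusted p = 0.00597). Mrpl12 read 8.32, 8.54, 8.44 and 9.10 in AE, where AE 4 lay just under the lowest MT2 array, a difference of 0.81 (SE 0.17, limma adjusted p = 0.00323). Mrpl1 read 8.02, 7.95, 7.90 and 7.71 in MT2 and 6.84, 7.43, 7.29 and 7.64 in AE, again with AE 1 lowest, a difference of 0.59 (SE 0.15, limma adjusted p = 0.00823).

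Mrps35, a mitochondria-specific small subunit protein, read 8.29, 8.18, 8.14 and 8.44 in MT2 and 7.65, 7.85, 7.72 and 7.99 in AE, and the difference was 0.45 (SE 0.13, limma adjusted p = 0.015). Mrpl16, which lies near the peptidyl transferase centre, was 9.54 ± 0.23 (SD, n = 4) in MT2 and 9.11 ± 0.17 (SD, n = 4) in AE, a difference of 0.43 (SE 0.14, limma adjusted p = 0.0377). Mrps5, Mrpl13, Mrps28 and Mrpl47 were higher in MT2 as well, by 0.47 to 0.74, with groups that overlapped.

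The 3 lower members were the large subunit proteins Mrpl52, Mrpl4 and Mrpl14. Mrpl52 read 9.32, 9.49, 9.48 and 8.97 in MT2, below every AE array, a difference of −0.60 (SE 0.16, limma adjusted p = 0.0121), and its other tested probe sets gave −0.75 and −0.81. Mrpl4 read 8.78, 8.93, 8.75 and 8.68 in MT2, also below every AE array, by −0.44 (SE 0.13, limma adjusted p = 0.0187). Mrpl14, at the subunit interface, read 8.27, 8.33, 8.26 and 8.32 in MT2 and 8.75, 8.97, 8.58 and 8.55 in AE, a difference of −0.42 (SE 0.13, limma adjusted p = 0.0271).

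Leaving out 1 array at a time, 8 to 20 members passed, 20 without AE 4 and 8 without MT2 1 or AE 2. Mrpl19, Mrpl12, Mrpl1, Mrpl13, Mrps5, Mrps35 and Mrpl52 kept their call in all 8 leave-outs. After quantile normalization 20 passed (15 higher), within tag A 23 (21 higher) and with the tag as a factor 25 (22 higher), while the methods' t-test gave 2. Tag A holds a single AE array (AE 1), so that count assumes that AE 1 varies like the arrays of the other groups. The counts of these alternatives were not set against the share over all probe sets.

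Of 9 marker lists, 4 did not overlap between MT2 and AE. The neutrophil list summed to 6310 to 18300 in MT2 and 22200 to 27800 in AE, and the GMP list to 50900 to 52600 and 37700 to 46800. Of the GMP genes, Csf1r (12.59 against 13.16), Fcgr3 (9.50 against 10.07) and Csf3r (9.10 against 9.21) were lower in MT2. The B cell list summed to 191 to 226 in MT2 and 310 to 413 in AE, and the list of 4 mast cell genes, 2 of them under 60 on every array, to 183 to 269 and 276 to 677. Their part in the members' differences was not tested.

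The pathway counts for MT2 against AE stand beside the 12.3% of all probe sets that were higher. Higher in MT2 were 5 of 17 genes of mitochondrial genome expression, among them Lrpprc, which stabilises mitochondrial messenger RNA (0.86, SE 0.23, limma adjusted p = 0.0131), and Tfam, which packages the mitochondrial genome (0.60, SE 0.21, limma adjusted p = 0.0432). Of 18 assembly genes 4 were higher, with a list median of 0.02 and Fastkd2 (0.60) and Noa1 (0.56) the widest, and of 10 translation factors 1, Gfm1 (0.47). Of 11 tRNA synthetase and amidotransferase genes 2 were higher, Gars, which serves the cytosol and mitochondria (1.00, SE 0.15, limma adjusted p = 0.000306), and Rars2 (0.42), with a list median of 0.03. None of these 4 lists had a lower gene. Of 8 regulators with both group means over 60, Myc (1.26) and Pprc1 (0.53) were higher in MT2 and Mycn (−1.99) was lower.

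MT2 against NHA9 gave 0 members with limma, where 7.52% of all probe sets passed. At an unadjusted p under 0.05 were 14 of the 74 members, 11 higher and 3 lower, where 23.9% of all probe sets were at that p. The methods' t-test gave 0. Mrpl12 came closest, at 8.89, 8.58 and 8.88 in NHA9, below every MT2 array, with a difference of 0.63 (SE 0.19, limma adjusted p = 0.0538), and Mrpl52 lay on the other side at −0.55 (SE 0.17, limma adjusted p = 0.0687). The other tested probe sets of Mrpl52 passed, at −0.61 (limma adjusted p = 0.0177) and −0.70 (limma adjusted p = 0.0139). Within tag A 15 members passed, 14 higher and 1 lower, with the tag as a factor 4, with the mean of a gene's probe sets 3, without NHA9 3 2 and without MT2 3 1. The neutrophil, macrophage, GMP and stem cell lists did not overlap between MT2 and NHA9 in summed level, and their part was not tested. NHA9 against AE gave 0 members, where 7.23% of all probe sets passed, and 0 with the methods' t-test. At an unadjusted p under 0.05 were 2 of the 74 members, where 21.6% of all probe sets were at that p. Mrps35 came closest, higher in NHA9 by 0.46 (SE 0.14, limma adjusted p = 0.0556), and within tag A 7 members passed, all higher in NHA9, with AE 1 as the only AE array. Without AE 4 2 members passed and without NHA9 3 1 did, and the B cell and megakaryocyte lists did not overlap in summed level, and their part was not tested.

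LSK cells were compared with GMP, their descendants. Of the members 7 were lower in LSK, or 9.46%, where 5.01% of all probe sets were, and 1 was higher, where 10.1% were. The lean of the members was opposite to that of all probe sets: 63 of 74 lay lower, with a median of −0.31, while 55.2% of all probe sets lay higher, with a median of 0.06. The median was −0.33 for the large subunit and −0.25 for the small subunit, and 6 of the 7 lower members were of the large subunit. With quantile normalization the median was −0.41 beside −0.03 over all probe sets.

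Mrpl36, the counterpart of the small bacterial protein L36, read 8.04, 7.78 and 8.17 in LSK and 8.61, 8.47, 8.81 and 8.96 in GMP, a difference of −0.71 (SE 0.18, limma adjusted p = 0.0249). Mrpl51, a mitochondria-specific large subunit protein, read 9.95, 9.73 and 9.94 in LSK and 10.58, 10.43, 10.57 and 10.65 in GMP, a difference of −0.69 (SE 0.14, limma adjusted p = 0.0123). For both genes every LSK array lay below every GMP array, and all other groups lay above LSK on every array for Mrpl51. Mrpl20, the counterpart of an early-binding bacterial protein, read 9.34, 9.20 and 9.49 in LSK and 10.00, 9.66, 10.13 and 10.21 in GMP, with GMP 2 lowest, and differed by −0.65 (SE 0.18, limma adjusted p = 0.0362).

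Mrps36, the dehydrogenase component with a ribosomal name, read 7.67, 7.49 and 7.76 in LSK and 8.14, 8.17, 8.42 and 8.40 in GMP, a difference of −0.65 (SE 0.15, limma adjusted p = 0.0214). Mrpl44, which has a fold like RNase III, read 8.77, 8.76 and 9.17 in LSK and 9.55, 9.31, 9.55 and 9.70 in GMP, a difference of −0.63 (SE 0.17, limma adjusted p = 0.0355). Mrpl33 was 8.66 ± 0.15 (SD, n = 3) in LSK and 9.26 ± 0.22 (SD, n = 4) in GMP, a difference of −0.60 (SE 0.17, limma adjusted p = 0.0449). The last was Mrpl41 at −0.56 (SE 0.14, limma adjusted p = 0.0294). In none of the 7 did the groups overlap.

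Mrpl52 was the exception. It read 10.41, 10.41 and 10.28 in LSK and 9.31, 9.34, 9.61 and 9.42 in GMP, and every LSK array lay far above every GMP array. The difference was 0.95 (SE 0.15, limma adjusted p = 0.00307). Its other tested probe sets gave 1.19 (SE 0.25, limma adjusted p = 0.0139) and 1.48 (SE 0.43). Mrpl52 kept this call in all 7 leave-outs and after quantile normalization, within tag A, with the tag as a factor and with the methods' t-test. The lowest group was L-GMP, at 9.06, 9.28 and 9.04, and the means of NHA9 and AE lay between those of LSK and GMP.

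**Figure D5:**
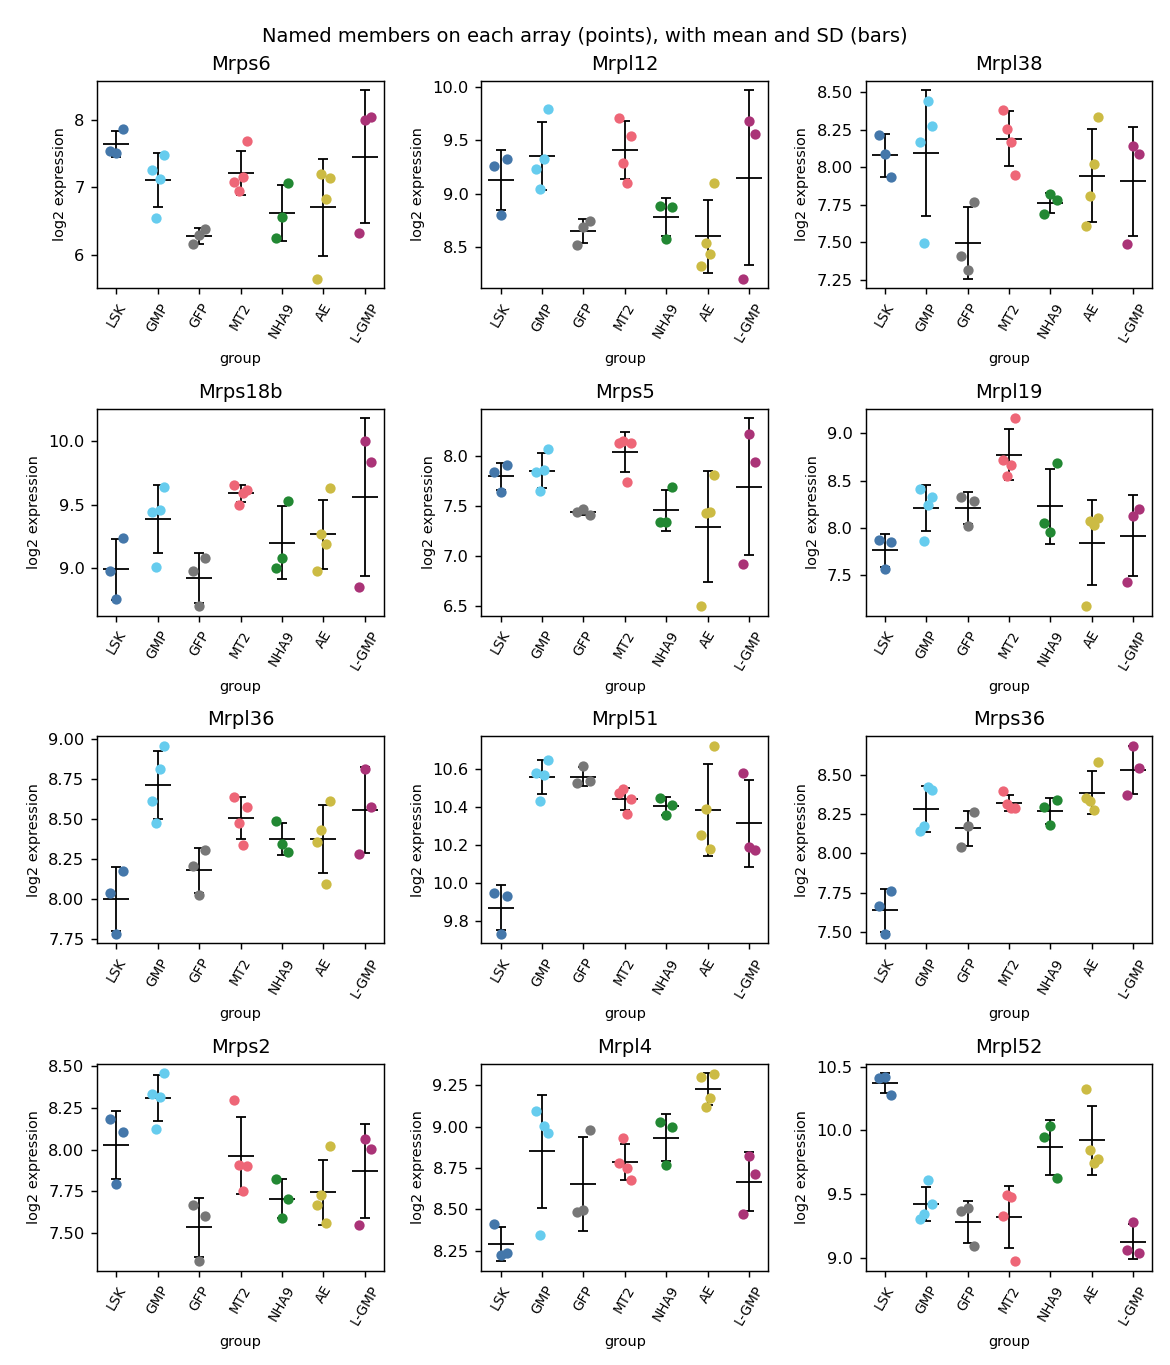
Log2 expression of 12 members on each array (points) by group, with the group mean and SD (bars). Mrps6, Mrpl12, Mrps18b and Mrps5 are higher on all MT2 than on all GFP arrays, Mrpl36, Mrpl51 and Mrps36 are lowest in LSK, and Mrpl52 is highest there, at 10.28 to 10.41.

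The number of lower members moved with single arrays. Without GMP 2, 31 members passed, 30 of them lower, and quantile normalization gave 36 (35 lower) and the tag as a factor 25 (24 lower). No share over all probe sets stands beside these counts, so they were not set against a background. Without LSK 1, LSK 2 or GMP 1, Mrpl52 alone passed, without GMP 3 2 members did, and without LSK 3 or GMP 4 5 did. Within tag A 2 passed, Mrpl52 and Mrpl44, the methods' t-test gave Mrpl52 alone, and dropping the filter on low values gave 5. Markers moved as well: the summed level of 7 stem cell genes was 5170 to 6710 in LSK and 1160 to 2220 in GMP, and that of 5 erythroid genes was 1110 to 3160 in LSK and 313 to 541 in GMP, with Hba-a1 under 60 in both. The GMP list summed to 13700 to 22200 in LSK and 49600 to 55000 in GMP. The macrophage and the T and NK cell lists were lower in LSK in summed level without overlap, although C1qb of the macrophage list was higher. Nkg7 was by far the highest T and NK cell gene, with means of 10.51 in LSK and 11.82 in GMP. The part of these lists in the members' differences was not tested.

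Of the pathway lists, 1 gene passed between LSK and GMP. Tfam was higher in LSK, 8.52 ± 0.17 (SD, n = 3) against 7.80 ± 0.33 (SD, n = 4), by 0.72 (SE 0.20, limma adjusted p = 0.0425), and the 18 genes of mitochondrial genome expression had a median of 0.03. No translation factor (10 tested), tRNA synthetase or amidotransferase gene (13), assembly gene (18) or regulator (9) passed. The assembly genes had a median of 0.23, on the other side of 0 from the ribosomal proteins.

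GFP cells, which had been cultured and infected with the empty vector, were compared with fresh GMP, both of them controls of the study. At an unadjusted p under 0.05, 16 of the 74 members were lower in GFP and 0 higher, where 29.8% of all probe sets were at that p. Past the adjusted threshold 4 members were lower in GFP, or 5.41%, where 7.43% of all probe sets were, and 0 were higher, where 8.25% were. The share of lower members was below the background, although 67 of 74 lay lower with a median of −0.22, beside −0.04 over all probe sets. Mrps2, the counterpart of bacterial S2, read 7.67, 7.33 and 7.60 in GFP and 8.33, 8.13, 8.32 and 8.46 in GMP, a difference of −0.78 (SE 0.15, limma adjusted p = 0.00955). Mrps6, at 7.26, 6.54, 7.12 and 7.48 in GMP, differed by −0.82 (SE 0.22, limma adjusted p = 0.0335). Both were lower on every GFP array.

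Mrpl12 was 9.35 ± 0.32 (SD, n = 4) in GMP and 8.65 ± 0.11 (SD, n = 3) in GFP, a difference of −0.70 (SE 0.19, limma adjusted p = 0.0378), and Mrps28 differed by −0.68 (SE 0.18, limma adjusted p = 0.0324). Mrps6, Mrpl12 and Mrps28 were also higher in MT2 than in GFP, and both comparisons rest on the same 3 GFP arrays. Without GMP 2, 22 members passed, all lower, without GFP 2 none did, without GMP 4 2 did, and without GFP 1, GFP 3, GMP 1 or GMP 3 Mrps2 alone did. Quantile normalization gave 16 and the tag as a factor 9, all lower, tag A gave 2, no filter gave 1 and the methods' t-test 0. These counts and those of the leave-outs were not set against the share over all probe sets. Of 9 marker lists, 7 did not overlap between GFP and GMP in summed level, and their part was not tested. The macrophage list was higher in GFP, at 1530 to 1780 against 628 to 761. Lower in GFP were the stem cell list (572 to 749 against 1160 to 2220), the mast cell list (232 to 280 against 612 to 1480), the T and NK cell list (1840 to 2080 against 3290 to 4370), the megakaryocyte list (411 to 673 against 953 to 1940), the erythroid list (189 to 216 against 313 to 541) and the B cell list (153 to 229 against 230 to 327).

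Of 9 regulators tested, 1 was higher and 3 were lower in GFP, where 8.25% and 7.43% of all probe sets were. The list median was −0.06, and Nrf1, Gabpa, Gabpb1, Esrra and Yy1 did not pass. Mycn was at 13.41 ± 0.27 (SD, n = 3) in GFP and 6.96 ± 0.59 (SD, n = 4) in GMP, a difference of 6.45 (SE 0.30). Lower in GFP were Pprc1 (−1.26, SE 0.26, limma adjusted p = 0.0118), Myc (−1.03, SE 0.22, limma adjusted p = 0.0144) and Ppargc1b, a coactivator of mitochondrial genes (−0.87, SE 0.18, limma adjusted p = 0.0131). Of 18 assembly genes Mrm3, which methylates the large ribosomal RNA, was lower (−0.87, SE 0.15, limma adjusted p = 0.00462). Among 13 tRNA synthetase and amidotransferase genes Qrsl1 was lower (−0.79, SE 0.20, limma adjusted p = 0.0288) and Gars higher (0.67, SE 0.16, limma adjusted p = 0.0217). No translation factor or gene of mitochondrial genome expression passed.

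Leukemic GMP were compared with normal GMP, and limma called 0 members, where 4.86% of all probe sets passed. At an unadjusted p under 0.05 were 2 of the 74 members, both lower, where 17.6% of all probe sets were at that p. The methods' t-test gave 0. Members lay on both sides, 32 higher and 42 lower, with a median of −0.06 beside 0.03 over all probe sets, and leaving out 1 array moved the median between −0.18 and 0.11. Mrpl44 had the smallest p, at 9.18, 8.96 and 8.71 in L-GMP, below every GMP array, with a difference of −0.58 (SE 0.20, limma adjusted p = 0.166). Mrpl33 followed at 8.85, 8.86 and 8.64, also below every GMP array, by −0.48 (SE 0.20, limma adjusted p = 0.256).

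The L-GMP arrays did not agree among themselves for many members. Mrps6 read 6.32, 7.99 and 8.05, Mrpl12 8.21, 9.68 and 9.55, and Mrps18b 8.85, 10.00 and 9.83, each with L-GMP 1 low. With L-GMP 1 and GMP 2 left out together, a choice made after seeing the data, 3 members passed, 2 higher and 1 lower, and with the tag as a factor 6 passed, all lower. The summed level of the neutrophil list ran from 2290 to 47800 over the L-GMP arrays. The T and NK cell list summed to 153 to 399 in L-GMP and 3290 to 4370 in GMP. Nkg7 was by far its highest gene, with means of 6.90 in L-GMP and 11.82 in GMP. The summed levels of the stem cell, mast cell and megakaryocyte lists were also lower, and that of the macrophage list higher, without overlap. In the stem cell list Kit was lower (8.02 against 10.27), but Meis1 (8.14 against 5.87) and Flt3 (7.66 against 6.80) were higher. Vcam1 of the macrophage list was lower (5.53 against 7.49). The part of these lists was not tested. Of the pathway lists only Mycn passed, higher in L-GMP by 2.68 (SE 0.32, limma adjusted p = 0.00203).

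Probe sets of the same gene could be compared for a few of the calls. In MT2 against GFP 2 of the 14 members called had another tested probe set, and both had the same sign without passing. Of the calls in LSK against GMP 3 of 8 had another, all of the same sign, and of those in MT2 against AE 3 of 12, also of the same sign. Of the 2 calls in AE against GFP 1, Mrpl52, had others, of the same sign and also past the threshold. The other calls rest on 1 tested probe set each. Some members not called in a comparison had another probe set past the threshold there. For Mrpl15 such probe sets were lower in AE than in GFP (−0.61) and higher in MT2 than in GFP (0.48). In MT2 against AE those of Mrpl15 (0.36 to 0.86) and Mrpl35 (0.59, mean signal under 60) were higher, and that of Mrpl48 (−0.37) was lower. In MT2 against NHA9 those of Mrpl15 (0.62) and Mrpl35 (0.61) were higher. RefSeq lists 6 pseudogenes of this name pattern, among them 3 of Mrps36, and 7 members were read by probe sets of the _s_at or _x_at type, which can bind more than 1 transcript, Mrpl19, Mrpl37 and Mrpl38 among those called.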

How the data were processed

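The deposited table holds log2 expression estimates on 24 arrays that the authors made with GCRMA 2.4.1 from MAS5 cell files, per the submitters' processing notes. GCRMA adjusts for background and is meant to bring the arrays to one scale, and the main values were used as deposited. Differences between arrays remained in them. The median over the probe sets in use was −0.28 on GMP 2 and 0.01 to 0.13 on the other GMP arrays. The 64 control probe sets were left out. Per the series design text, outlying arrays had been taken out and present calls entered the authors' filter; present calls were not used here.

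limma 3.58.1 (R 4.3.3; lmFit and eBayes, two-sided) was fitted to the arrays of each comparison's groups, or on the 14 transduced arrays for differences between oncogenes. Probe sets with 2 or more arrays of a compared group above a linear value of 60, which is 5.91 in log2, were tested, with Benjamini-Hochberg adjustment over all probe sets tested and a threshold of 0.05. The fit was tested on simulated data. The number of arrays limits the precision.

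Members and lists were chosen with earlier results of these data known. Named in each comparison were up to 6 largest increases and 6 largest decreases among members past the threshold whose groups did not overlap, over all arrays the 5 highest and 5 lowest means and the 6 widest ranges of group means, and per pathway list the 3 largest changes each way. Members named beyond this rule, such as Mrpl35, Mrpl39, Mrpl41 and Mrps31, were chosen after their values were seen. Promoter letters are RefSeq's (GRCm38.p6). A planned look at protein features was not run, and no protein sequences were used here. Alternatives were no filter, quantile normalization, the mean of a gene's probe sets, the next probe set of a gene, the file name tag (tag A alone, or as a factor), the replicate number as a block, the methods' t-test (unequal variances, Benjamini-Hochberg) and leaving out each array. After seeing the data came the mean of the 3 oncogene group means and leaving out L-GMP 1 with GMP 2.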

Additional observations from a re-analysis of the deposited data

Results flagged for a closer look

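Of 90 sets of 4 arrays examined for the named members, 4 held an array set far apart from the others, and chance alone flags about 1 in 20. Mrps5 read 7.74 on MT2 3, with the other MT2 arrays at 8.13 to 8.15. Mrpl19 read 7.17 on AE 1, with the other AE arrays at 8.03 to 8.11. On MT2 4 Mrpl20 read 9.95 against 10.22 to 10.27 on the others, and Mrps14 read 11.33 against 11.04 to 11.06.

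For 8 members the response to MT2 and to AE, each against the same GFP arrays, differed by the contrast between them in the fit to the transduced arrays, with groups that did not overlap. Over all probe sets 12.3% were higher and 16.2% lower in that contrast, so the members' 12.2% and 4.05%, overlapping groups included, were at or below the background. The difference MT2 minus AE was 0.93 for Mrpl19, 0.81 for Mrpl12, 0.59 for Mrpl1, 0.45 for Mrps35 and 0.43 for Mrpl16. It was −0.60 for Mrpl52, −0.44 for Mrpl4 and −0.42 for Mrpl14. Mrpl16 lost its call in 5 of 8 leave-outs, Mrpl14 in 4 and Mrpl4 in that of MT2 4 alone, while Mrpl19, low on AE 1, kept it without that array at 0.71 (limma adjusted p = 0.00979).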

How the results depend on the processing

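Every count is of members past the threshold, in the order given. The shares over all probe sets given above belong to the main fits, and none stands beside the counts of the alternatives. Without the filter on low values AE against GFP gave 0, GFP against GMP 1 and LSK against GMP 5. With quantile normalization MT2 against GFP gave 7, AE against GFP 0, LSK against GMP 36, GFP against GMP 16, MT2 against AE 20, and MT2 against NHA9 and NHA9 against AE 1 each. It moved the median of all probe sets by over 0.1 in AE against GFP, from 0.08 to −0.02. The mean of a gene's probe sets gave 3 in MT2 against NHA9 and 1 in NHA9 against AE. The next probe set gave 9 in MT2 against GFP, 5 in LSK against GMP and 2 in MT2 against NHA9. Tag A alone gave 9 in MT2 against GFP, 9 in AE against GFP, 1 in NHA9 against GFP, 2 in LSK against GMP, 2 in GFP against GMP, 15 in MT2 against NHA9, 23 in MT2 against AE and 7 in NHA9 against AE. The tag as a factor gave 1 in MT2 against GFP, 25 in LSK against GMP, 6 in L-GMP against GMP, 9 in GFP against GMP, 4 in MT2 against NHA9 and 25 in MT2 against AE. The methods' t-test gave 0 in MT2 against GFP, AE against GFP and GFP against GMP, 1 in LSK against GMP, 2 in MT2 against AE and 3 for all oncogenes. L-GMP 1 and GMP 2 left out together gave 3. Leaving out 1 array gave 0 to 14 in MT2 against GFP, 0 to 1 in NHA9 against GFP, 0 to 7 in AE against GFP, 1 to 31 in LSK against GMP, 0 to 22 in GFP against GMP, 0 to 2 in MT2 against NHA9, 8 to 20 in MT2 against AE and 0 to 2 in NHA9 against AE. For all oncogenes and for L-GMP the count stayed at 0 in every leave-out of 1 array. The mean of the 3 oncogene group means left all oncogenes at 0. No named difference turned its direction in any alternative. The causes were not tested.

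The replicate numbers do not pair the arrays: correlations of same-numbered arrays' deviations ran from −0.44 to 0.50, and in 0 of 9 comparisons were all over 0.1. With the replicate block MT2 against GFP gave 8, AE against GFP 0, GFP against GMP 1, NHA9 against AE 1, LSK against GMP 8 and MT2 against AE 12, and in 0 comparisons did every array correlate best with its own number.

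The precision is limited by 3 or 4 arrays per group, and signal over background was no limit for most members, since 72 lay over 60 on all arrays.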
